A study of Mus with 9 samples.

Results

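The genes described here build ribosomes or transcribe ribosomal RNA. They were 40 genes chosen by symbol for these roles, of 54532 genes in the deposited count table, and each symbol matched 1 row of it. RNA was measured by sequencing in 9 libraries of mouse bone marrow cells, 3 per group. All groups share the same background: lethally irradiated C57BL/6 hosts received fetal liver cells of embryonic day 12.5 from mice with a conditional knock-in of the AML1-ETO fusion gene tagged with mCherry, together with supportive cells. The donor cells had been infected with a retrovirus, MSCV-IRES-EGFP. In the CCND2mut group it carried cyclin D2 with the change Thr280Ala, in the CCND2wt group wild-type cyclin D2, and in the Vec group no insert, and cells positive for mCherry and GFP were injected. No source used here gives the age of the hosts, the number of animals behind a library, the trigger of the conditional allele or a sort of the marrow before RNA extraction, so host and supportive cells may be among the cells measured.

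Ribosomes are assembled in the nucleolus. RNA polymerase I transcribes a long precursor RNA, small nucleolar ribonucleoproteins (snoRNPs) guide its chemical modification and cleavage, and a large set of assembly factors folds and trims it into the small (40S) and large (60S) subunits. Box C/D snoRNPs methylate ribose and box H/ACA snoRNPs turn uridine into pseudouridine. In blood cells as elsewhere, these genes are known as targets of the transcription factor MYC and are high in growing cells, and inherited or acquired defects in several of them affect blood formation.

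Total counts per library were 15043755 to 17593634. Levels are given in CPM, the gene's counts scaled to the size of the library, corrected by TMM factors. Whether the libraries of 1 group came from different mice is not stated in the labels; the p-values therefore reflect the spread among these samples alone, part or all of which may be technical. Ccnd2, the gene of the labels, stood at 12.6, 58.1 and 50.97 CPM in CCND2mut 1, 2 and 3, against 7.29, 9.28 and 11.1 CPM in CCND2wt 2, 3 and 4 and 75.99, 78.9 and 86.04 CPM in Vec 1, 2 and 4. These levels do not follow the labels, by which 2 of the groups received extra cyclin D2, so group names below mean libraries labelled so. The species of the added cyclin D2 sequence is not given in the labels, and reads from a sequence other than the mouse gene need not be counted there, so these counts do not show whether the added cyclin D2 was expressed. Of 4 markers of blood cells (Ptprc, Spi1, Lyz2 and Cd53) none was at 0 in any group, with a summed level of 1512 to 4058 CPM in CCND2mut, 606 to 663 in CCND2wt and 1021 to 2371 in Vec. The CCND2wt libraries lay closer together than those of the other groups: the chi-square per gene between pairs of libraries was 6.998 to 17.7 in CCND2wt, against 72.9 to 148 in CCND2mut and 53.3 to 117 in Vec. CCND2mut 1 and Vec 1 held the most RNA of 9 maturing neutrophil markers, with summed levels of 18850 and 14040 CPM, against 138 to 4261 CPM in the other 7 libraries. Genes of chromosomes 6 and 15 were higher in each CCND2mut library: relative to the mean of Vec, the median log2 ratio over genes averaging 5 CPM or more was 0.36 to 0.49 on chromosome 6 and 0.61 to 0.67 on chromosome 15, against -0.03 to 0.03 on all other chromosomes (0.1 CPM added). In CCND2wt these medians were 0.02 to 0.05 and -0.06 to -0.02. Copy number was not measured.

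Together the 40 genes took 0.533%, 0.488% and 0.605% of all counts in CCND2mut 1, 2 and 3, against 0.385%, 0.391% and 0.406% in CCND2wt 2, 3 and 4 and 0.358%, 0.466% and 0.413% in Vec 1, 2 and 4. Every CCND2mut library held a larger share than every library of the other groups, while CCND2wt lay within the range of Vec. Among the 39 tested members, 34 had their highest group mean in CCND2mut, and in 25 members the order was CCND2mut, Vec, CCND2wt. How often all tested genes had these orders was not counted. In bulk RNA, more cells that express a gene and more RNA per cell cannot be told apart. In 1 member, Wdr74, a 60S factor, there were only 3 counts over the 9 libraries, and it was not tested. Another annotated gene, Gm45736, overlaps it on the same strand over 4784 bases and also had few counts (5), and how the counting treated reads that fit both genes is not given.

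**Figure D1:**
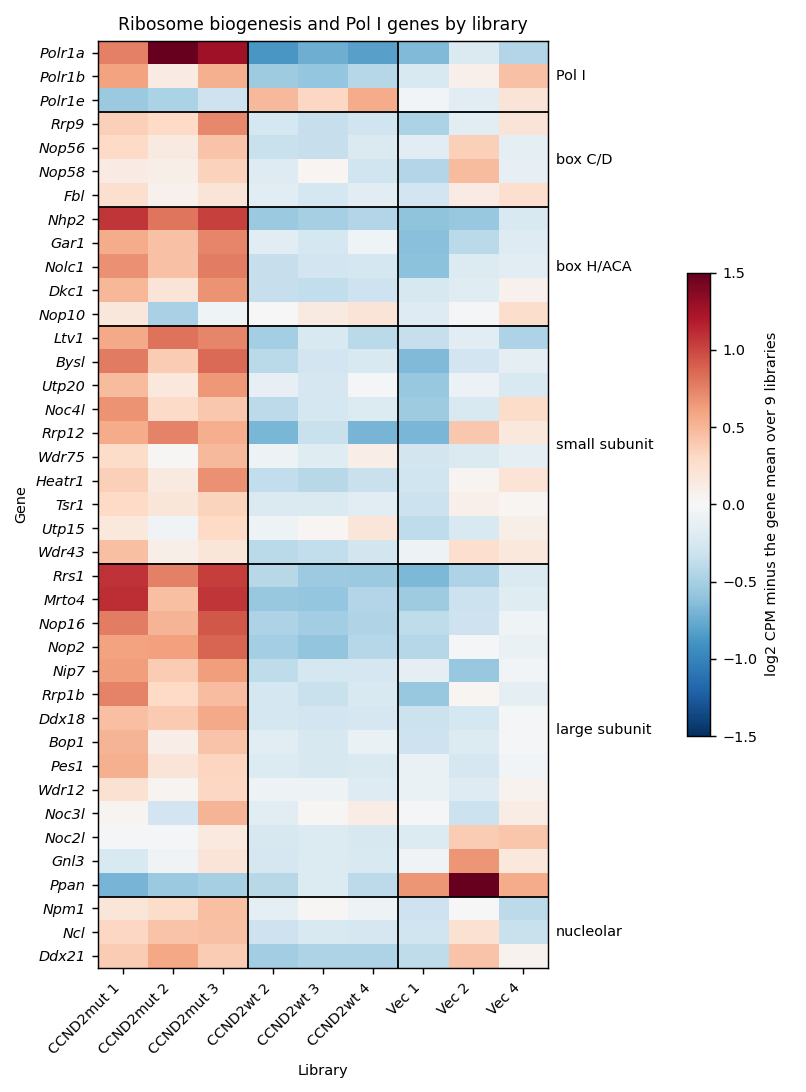
Heat map of 39 tested members (rows, grouped by role) in 9 libraries (columns, CCND2mut, CCND2wt, Vec from left to right); colour is log2 CPM minus the gene's mean over the 9 libraries, limited to the range of -1.5 to 1.5, which Polr1a in CCND2mut 2 and Ppan in Vec 2 exceed. Most rows are red in the 3 CCND2mut libraries, while Polr1e and Ppan are blue in all 3 of them.

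The main comparison set CCND2mut against Vec. Of the 39 tested members, 22 rose and 2 fell at an edgeR adjusted p under 0.05, that is 56.4% and 5.13%, beside 24.9% higher and 26.9% lower among all 15660 tested genes. The median log2 fold change of the members was 0.53, with quartiles of 0.27 and 0.83, beside -0.03 over all tested genes. Groups did not overlap in 24 members that were higher in CCND2mut and in 2 that were lower, where 27.5% and 29.2% of all genes behaved so. Of the 22 that rose, 16 rose by more than 1.5-fold, as did 20.7% of all tested genes. Only 1 member, Polr1a, rose by more than 3-fold.

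Among 3 genes of RNA polymerase I subunits, 1 rose and 1 fell (33.3% each, beside 24.9% and 26.9% of all tested genes). Polr1a (ENSMUSG00000049553; chromosome 6, 71909053 to 71984935, plus strand in mm10) encodes the largest subunit, which forms the catalytic core together with the product of Polr1b. Polr1a stood at 126, 246 and 181 CPM in CCND2mut 1, 2 and 3, against 40.7, 44.9 and 42.6 CPM in CCND2wt 2, 3 and 4 and 47.5, 64.4 and 55.2 CPM in Vec 1, 2 and 4. Each CCND2mut library was at least as high as 126 CPM and none of the others passed 64.4 CPM, and the values within CCND2mut spread more than those of any other tested member (coefficient of variation 32.6%). The log2 fold change against Vec was 1.73 (SE 0.229, edgeR adjusted p = 0.000451). Polr1b (ENSMUSG00000027395; chromosome 2, 129100995 to 129126594, plus strand) stood at 66.2, 47.3 and 62.9 CPM in CCND2mut 1, 2 and 3, against 30.02, 29.2 and 32.3 CPM in CCND2wt 2, 3 and 4 and 37.00, 45.8 and 58.96 CPM in Vec 1, 2 and 4, so that CCND2mut and Vec overlapped, and its fold change against Vec, 0.32, did not pass (edgeR adjusted p = 0.189). Polr1e (ENSMUSG00000028318; chromosome 4, 45018583 to 45036565, plus strand), which encodes PAF53, a peripheral subunit that takes part in initiation, stood at 20.6, 21.9 and 24.5 CPM in CCND2mut 1, 2 and 3, against 42.3, 37.4 and 44.5 CPM in CCND2wt 2, 3 and 4 and 29.4, 26.99 and 34.6 CPM in Vec 1, 2 and 4. It was lower in every CCND2mut library than in any other and fell against Vec, with -0.45 (SE 0.139, edgeR adjusted p = 0.0255). This call was lost without CCND2mut 1, CCND2mut 2 or Vec 4, with values of -0.39, -0.44 and -0.34 (adjusted p = 0.0623, 0.0566 and 0.0831), which leaves 1 member lower. Polr1e lies across from Fbxo10 on the other strand over 2319 bases and Polr1a across from an antisense gene over 2631 bases, and the strand setting of the counting is not given. Over all libraries Polr1e had 4734 counts and Fbxo10 902, and Polr1a had 13445 and its antisense gene 429.

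**Figure D2:**
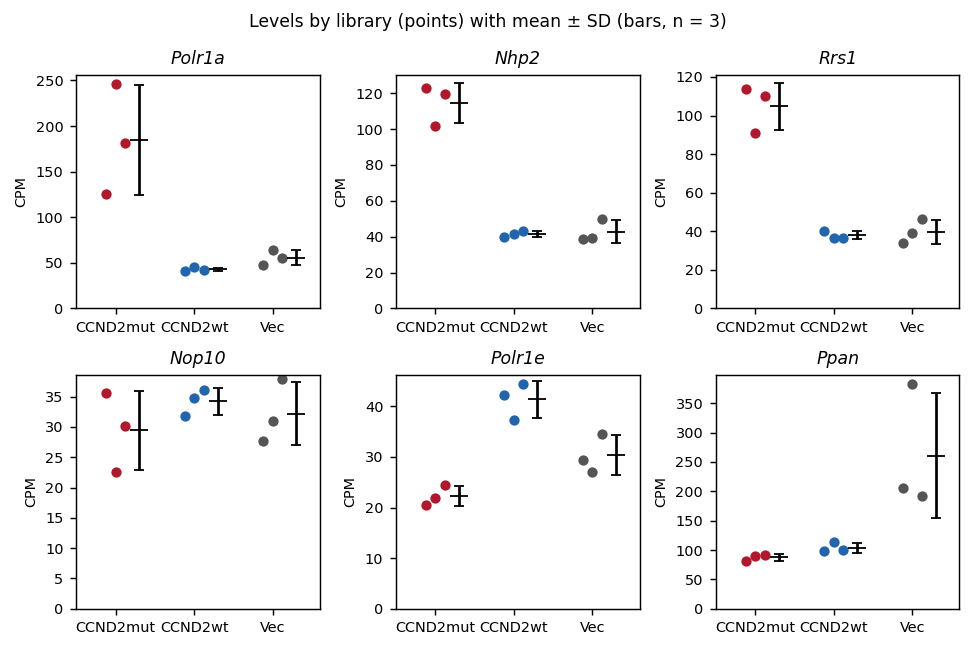
Levels in CPM of 6 members in each library (points) with the mean and SD of the group (black, n = 3), for CCND2mut, CCND2wt and Vec from left to right. Polr1a, Nhp2 and Rrs1 are higher in all CCND2mut libraries, Nop10 overlaps between groups, Polr1e is lowest in CCND2mut, and Ppan is highest in Vec.

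Of the box H/ACA genes, 4 of 5 rose (80%, beside 24.9% of all tested genes). The enzyme that makes pseudouridine is dyskerin, the product of the X-linked Dkc1, which works in a core with the products of Nhp2, Nop10 and Gar1. Nolc1 encodes Nopp140, a chaperone of snoRNPs. Nhp2 (ENSMUSG00000001056; chromosome 11, 51619735 to 51623714, plus strand) stood at 123, 102 and 119 CPM in CCND2mut 1, 2 and 3, against 39.7, 41.2 and 43.03 CPM in CCND2wt 2, 3 and 4 and 38.6, 39.3 and 50.1 CPM in Vec 1, 2 and 4. Its lowest CCND2mut value, 102 CPM, was over the highest value elsewhere, 50.1 CPM, and the log2 fold change was 1.43 (SE 0.132, edgeR adjusted p = 8.81e-05), next after Polr1a among the members. Gar1 stood at 81.00, 74.9 and 91.5 CPM in CCND2mut 1, 2 and 3, against 48.8, 45.8 and 52.8 CPM in CCND2wt 2, 3 and 4 and 35.7, 41.6 and 48.3 CPM in Vec 1, 2 and 4. CCND2mut did not overlap CCND2wt or Vec here either (0.98, SE 0.137, edgeR adjusted p = 0.000593 against Vec), while CCND2wt and Vec overlapped. Nolc1 averaged 186 ± 21.8 CPM in CCND2mut and 96.1 ± 15.8 in Vec (SD, n = 3 each), a log2 fold change of 0.96 (SE 0.143, edgeR adjusted p = 0.000817), and Dkc1 averaged 119 ± 19.9 and 79.7 ± 9.18 CPM, a change of 0.58 (SE 0.14, edgeR adjusted p = 0.00857). Nop10 encodes the smallest protein of the core. It stood at 35.6, 22.6 and 30.1 CPM in CCND2mut 1, 2 and 3, against 31.8, 34.7 and 36.1 CPM in CCND2wt 2, 3 and 4 and 27.7, 30.9 and 37.8 CPM in Vec 1, 2 and 4. CCND2mut 2 was the lowest of all libraries and the groups overlapped, and its fold change was -0.13 (SE 0.186, edgeR adjusted p = 0.589).

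Of the box C/D genes, 1 of 4 rose against Vec, a share (25%) near the 24.9% of all tested genes. Fbl encodes fibrillarin, the methyltransferase of these particles, Nop56 and Nop58 encode its core partners, and Rrp9 encodes a protein specific to the U3 particle that is needed for the first cleavages. Rrp9 stood at 40.4, 38.5 and 51.7 CPM in CCND2mut 1, 2 and 3, against 26.2, 24.7 and 25.4 CPM in CCND2wt 2, 3 and 4 and 22.6, 27.9 and 35.8 CPM in Vec 1, 2 and 4 and rose (0.60, SE 0.185, edgeR adjusted p = 0.0249), although the lowest CCND2mut value lay close to Vec 4. The call was lost without CCND2mut 3, Vec 1 or Vec 2 (0.46, 0.45 and 0.57, adjusted p = 0.0851, 0.0633 and 0.0681), and Rrp9 overlaps Parp3 on the other strand over 987 bases. Nop56 stood at 237, 212 and 259 CPM in CCND2mut 1, 2 and 3, against 153, 151 and 166 CPM in CCND2wt 2, 3 and 4 and 170.5, 247 and 173 CPM in Vec 1, 2 and 4. Vec 2 lay among the CCND2mut libraries while Vec 1 and Vec 4 were lower. Its fold change of 0.26 did not pass (edgeR adjusted p = 0.199), and without Vec 2 it was 0.45 and passed (adjusted p = 0.0145). Fbl and Nop58 had fold changes of 0.12 and 0.17 and also overlapped between CCND2mut and Vec.

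Small subunit factors had fold changes above 0 in 10 of 10 genes, as did 7645 of all 15660 tested genes. Of the 10, 5 rose (50%, beside 24.9% of all tested genes), with a median of 0.53. The largest changes were those of 2 genes for factors of the later 40S precursor, Ltv1 and Bysl. Ltv1, which leaves the particle shortly before it matures, stood at 63.2, 75.3 and 71.05 CPM in CCND2mut 1, 2 and 3, against 29.9, 36.5 and 32.1 CPM in CCND2wt 2, 3 and 4 and 33.6, 37.8 and 31.1 CPM in Vec 1, 2 and 4. CCND2mut did not overlap the other groups, with a log2 fold change of 1.03 (SE 0.128, edgeR adjusted p = 0.000328). Bysl, which encodes bystin, stood at 42.02, 31.9 and 43.9 CPM in CCND2mut 1, 2 and 3, against 18.4, 19.97 and 20.9 CPM in CCND2wt 2, 3 and 4 and 15.5, 20 and 22.3 CPM in Vec 1, 2 and 4 and rose to a like extent (1.03, SE 0.179, edgeR adjusted p = 0.0017). Bysl overlaps Ccnd3 on the other strand over 361 bases, and Ccnd3 had 18725 counts over all libraries against 3818 for Bysl. Utp20, Noc4l and Wdr75, factors of the early small subunit precursor, also rose, by 0.72, 0.59 and 0.48. The call of Wdr75 was lost without CCND2mut 3 (0.36, adjusted p = 0.0679), and that of Noc4l without any 1 library other than CCND2mut 2 or Vec 4 (0.42 to 0.63, adjusted p = 0.0624 to 0.11). Heatr1, Utp15, Wdr43, Rrp12 and Tsr1 had values of 0.13 to 0.59 that did not pass.

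Of the 14 tested large subunit factors, 9 rose and 1 fell in CCND2mut against Vec, with fold changes of -1.58 to 1.40. These are 64.3% and 7.14%, beside 24.9% and 26.9% of all tested genes. Rrs1 (ENSMUSG00000061024; chromosome 1, 9545408 to 9547455, plus strand), which helps bring 5S RNA into the 60S precursor, stood at 114, 90.7 and 110.1 CPM in CCND2mut 1, 2 and 3, against 40.3, 36.7 and 36.7 CPM in CCND2wt 2, 3 and 4 and 33.7, 38.99 and 46.2 CPM in Vec 1, 2 and 4. Mrto4, which holds the place of a stalk protein on the precursor, stood at 75.4, 47.8 and 73.6 CPM in CCND2mut 1, 2 and 3, against 23.7, 23.5 and 25.8 CPM in CCND2wt 2, 3 and 4 and 24.2, 28.1 and 31.1 CPM in Vec 1, 2 and 4. Both were higher in every CCND2mut library than in any other, by 1.40 (SE 0.143, edgeR adjusted p = 0.000136) and 1.24 (SE 0.186, edgeR adjusted p = 0.000814). Nop16 averaged 49.8 ± 7.2 CPM in CCND2mut and 24.99 ± 2.91 in Vec (0.99, SE 0.143, edgeR adjusted p = 0.000665), and Nop2, a methyltransferase of 28S RNA, 136 ± 15.1 and 73.8 ± 10.3 CPM (0.88, SE 0.133, edgeR adjusted p = 0.000839). Nip7, Rrp1b and the helicase gene Ddx18 rose by 0.78, 0.72 and 0.67. Pes1, Bop1 and Wdr12 encode the 3 proteins of the PeBoW complex, which is needed for 60S assembly. Pes1 rose by 0.48 and Bop1 by 0.53 (edgeR adjusted p = 0.00699 and 0.00992), and Wdr12 stood at 0.27 (adjusted p = 0.0745; 0.34 and 0.0455 without CCND2mut 2). Processed pseudogenes named after Mrto4 had 305 counts over all libraries against 5706 for Mrto4 itself.

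Ppan (ENSMUSG00000004100; chromosome 9, 20888175 to 20892178, plus strand), which encodes another 60S factor, went the other way. It stood at 80.6, 88.99 and 92.3 CPM in CCND2mut 1, 2 and 3, against 98.3, 113 and 99.6 CPM in CCND2wt 2, 3 and 4 and 206, 383 and 193 CPM in Vec 1, 2 and 4. All 6 libraries with a cyclin D2 label lay between 80.6 and 113 CPM, under each Vec library, and Vec 2 was nearly as high as Vec 1 and Vec 4 together. Against Vec it fell in CCND2mut by 1.58 on the log2 scale (SE 0.248, edgeR adjusted p = 0.00102) and in CCND2wt by 1.33 (SE 0.246, adjusted p = 0.00898). Both comparisons use the same Vec libraries. Gnl3, which encodes nucleostemin, and Noc2l had fold changes of -0.31 and -0.19 against Vec in CCND2mut that did not pass, and Noc3l had 0.18.

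Of 3 genes for abundant nucleolar proteins, 2 rose against Vec (66.7%, beside 24.9% of all tested genes). Ncl encodes nucleolin, which binds the precursor RNA, and Npm1 encodes nucleophosmin, an assembly factor and histone chaperone that is often mutated in acute myeloid leukaemia. Ncl stood at 1166, 1266 and 1278 CPM in CCND2mut 1, 2 and 3, against 756, 802 and 791 CPM in CCND2wt 2, 3 and 4 and 761, 1101 and 748 CPM in Vec 1, 2 and 4. All CCND2mut values lay over those of the other groups, with Vec 2 close to them (0.51, SE 0.159, edgeR adjusted p = 0.0263). The call was lost without CCND2mut 2, CCND2mut 3, Vec 1 or Vec 4 (0.40 to 0.49, adjusted p = 0.0556 to 0.0909). Npm1 stood at 723, 768 and 866 CPM in CCND2mut 1, 2 and 3, against 577, 640.5 and 603 CPM in CCND2wt 2, 3 and 4 and 514, 631 and 484 CPM in Vec 1, 2 and 4 and rose by 0.53 (SE 0.134, edgeR adjusted p = 0.0101). The helicase gene Ddx21 averaged 319 ± 25.3 CPM in CCND2mut and 245 ± 67.2 in Vec, and did not pass (0.38, SE 0.183, edgeR adjusted p = 0.113); without Vec 2 the value was 0.59 (adjusted p = 0.0154).

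**Figure D3:**
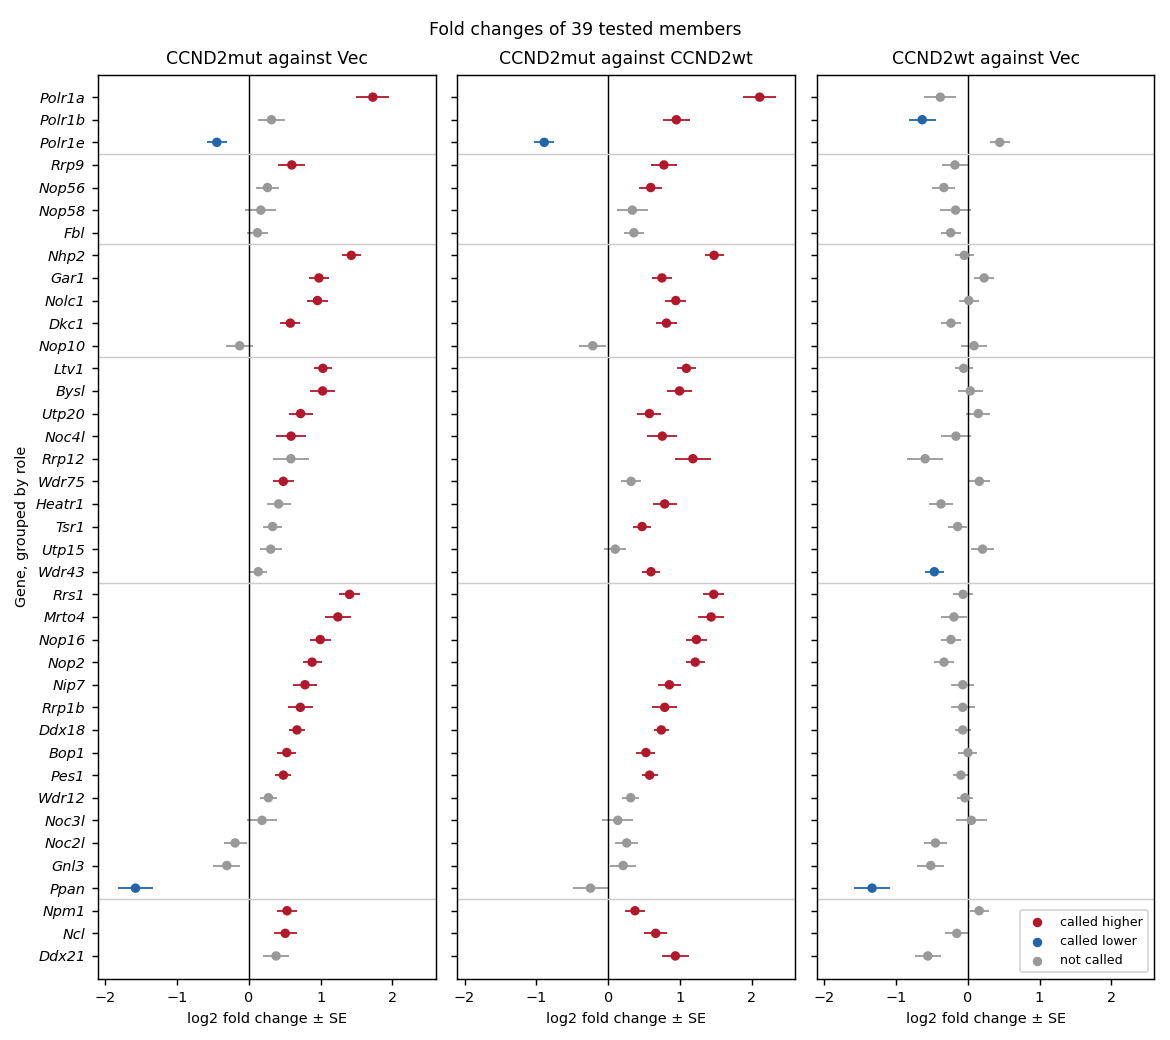
Log2 fold changes with their standard errors (edgeR, 9 libraries in 1 fit) of 39 tested members, grouped by role and ordered by CCND2mut against Vec, in the 3 comparisons. Red points were called higher and blue points lower at an adjusted p under 0.05: 22 and 2 in CCND2mut against Vec, 28 and 1 in CCND2mut against CCND2wt, 0 and 3 in CCND2wt against Vec.

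The direct comparison of CCND2mut with CCND2wt gave more calls. Of 39 tested members 28 rose and 1 fell (71.8% and 2.56%), beside 23.2% higher and 23.8% lower among all tested genes, with a median log2 fold change of 0.74 beside 0.02. Groups did not overlap in 32 members that were higher and 2 that were lower in CCND2mut, where 30.9% and 32.2% of all genes behaved so. In 21 members CCND2mut was called higher than both other groups. Both comparisons use the same CCND2mut libraries, and the share of all genes called so in both was not counted. Polr1a had 2.11 (SE 0.232, edgeR adjusted p = 0.000196), Nhp2 1.47 (SE 0.132, edgeR adjusted p = 7.66e-05) and Rrs1 1.47 (SE 0.143, edgeR adjusted p = 0.000112). Other members passed in this comparison but not against Vec: Polr1b (0.95), Nop56 (0.59), Ddx21 (0.93), Rrp12 (1.18) and Wdr43 (0.60), with edgeR adjusted p of 0.00367, 0.0149, 0.00344, 0.00503 and 0.00518. Heatr1 and Tsr1 did so too. The calls of Nop56 and Tsr1 were lost without CCND2wt 2 or CCND2wt 3, with 0.57 and 0.56 for Nop56 (adjusted p = 0.0583 and 0.0581) and 0.45 each for Tsr1 (adjusted p = 0.061 and 0.0585). Polr1e was the 1 member that fell, by 0.89 on the log2 scale (SE 0.139, adjusted p = 0.00106). With the 3 CCND2wt libraries, which lay close together, summed into 1 sample, 7 members were called higher, beside 4.53% of all genes tested in that fit, with a median of 0.71.

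CCND2wt was then set against Vec. Of 39 tested members 0 rose and 3 fell (0% and 7.69%), beside 9.71% higher and 9.05% lower among all tested genes, and the median was -0.14 beside -0.04. Besides Ppan, these were Polr1b (-0.63, SE 0.189, edgeR adjusted p = 0.0491) and Wdr43 (-0.46, SE 0.128, edgeR adjusted p = 0.0378). At an unadjusted p under 0.05, 1 member was higher and 8 were lower, beside 16.7% and 18.8% of all tested genes. DESeq2, limma-voom and a fit of these 2 groups alone called 1 member higher, as did edgeR without CCND2mut 1 or Vec 4, beside 5.87% to 14.8% of all genes in these 5 fits. In each of these fits it was Polr1e (0.44 to 0.55, adjusted p = 0.0188 with DESeq2 and 0.0427 to 0.0474 in the others). Polr1e stood at 0.45 (edgeR adjusted p = 0.0548) and Polr1a at -0.38 (adjusted p = 0.26). The count of members that fell depended on single libraries: without CCND2mut 3, any 1 CCND2wt library, Vec 2 or Vec 4 it was 1 (Ppan), and without Vec 1, which held the lowest Vec value in 30 of 39 members and the highest in 0, it was 7. Of all genes in these fits, 2.46% to 8.66% fell in the fits with 1 member and 8.38% in that with 7. For Polr1b the value with any 1 of the first 6 libraries left out was -0.67 to -0.44 (adjusted p = 0.0648 to 0.151), and for Wdr43 -0.50 to -0.37 (adjusted p = 0.0505 to 0.141). Without both Vec 1 and CCND2mut 1, 9 fell, beside 12.9% of all genes in that fit. With the CCND2wt libraries summed, 0 fell, beside 0.0733% of all genes, so that this fit called hardly any gene lower.

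**Figure D4:**
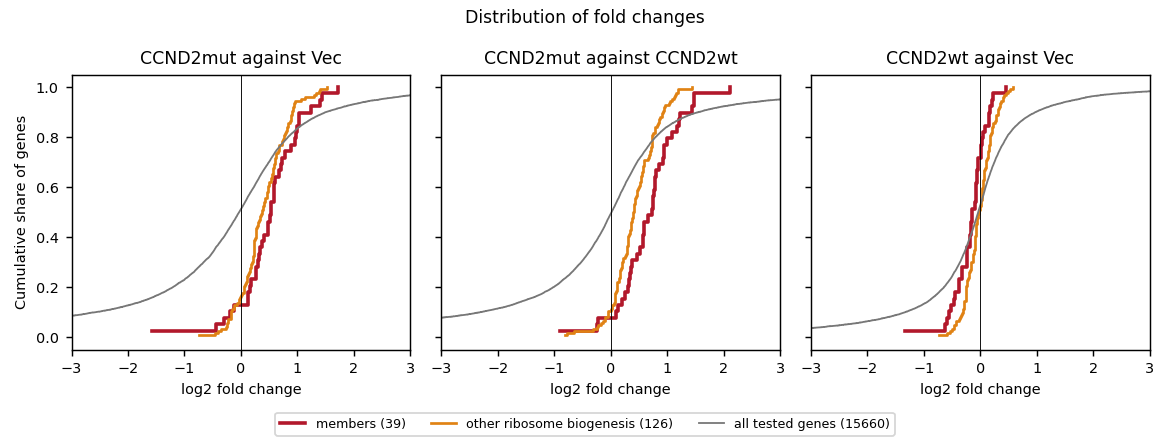
Cumulative share of genes (vertical axis) at or under each log2 fold change (horizontal axis, shown from -3 to 3) for 39 tested members, 126 other ribosome biogenesis genes and 15660 tested genes, in the 3 comparisons. The curves of the members lie to the right of that of all genes over most of their range in both CCND2mut comparisons, with medians of 0.53 and 0.74, and rise steeply around -0.14 in CCND2wt against Vec.

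Other genes of ribosome biogenesis were taken from a list of 127 genes, all in the file, of which 126 were tested. Against Vec, 60 rose and 2 fell in CCND2mut (47.6% and 1.59%, beside 24.9% and 26.9% of all tested genes), with a median of 0.37. Against CCND2wt, 63 rose and 3 fell in CCND2mut (50% and 2.38%, beside 23.2% and 23.8% of all tested genes), with a median of 0.41. In CCND2wt against Vec, 2 rose and 2 fell (1.59% each, beside 9.71% and 9.05% of all tested genes), with a median of -0.02. By role, CCND2mut was higher than Vec in 25 of 45 small subunit factors, 19 of 48 large subunit factors, 9 of 12 genes of the RNA exosome, which trims the precursor, 4 of 8 genes of snoRNP assembly and 3 of 13 genes of the polymerase I machinery. The share in the polymerase I machinery, 23.1%, lay near the 24.9% of all tested genes. The largest rises against Vec were those of Exosc4, an exosome subunit (1.52, SE 0.227, edgeR adjusted p = 0.000795), Utp23, a small subunit factor (1.40, SE 0.308, edgeR adjusted p = 0.00531), and Nol12 (1.38, SE 0.103, edgeR adjusted p = 3.64e-05), and all 3 genes lie on chromosome 15. Nat10, an RNA acetyltransferase, fell by 0.75 and Pih1d1, of snoRNP assembly, by 0.46 against Vec. Against CCND2wt the largest rises were those of Pak1ip1 (1.43), Rsl24d1 (1.19) and Exosc4 (1.19), and the falls were those of Pih1d1 (-0.81), Znrd1, a polymerase I subunit gene (-0.78), and Nat10 (-0.66). In CCND2wt against Vec, the exosome genes Exosc8 (0.58) and Mphosph6 (0.49) rose, and Ddx54 (-0.73) and Pak1ip1 (-0.36) fell.

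Of the tested members, 3 lie on the chromosomes that were higher as a whole in CCND2mut. Polr1a and Nop2 lie on chromosome 6, where the median log2 fold change of genes averaging 5 CPM or more was 0.45 in CCND2mut against Vec, and Bop1 lies on chromosome 15, where it was 0.66. Bop1, at 0.53, lay under its chromosome's median, Nop2, at 0.88, and Polr1a, at 1.73, over theirs. Away from these chromosomes, 19 of 36 tested members rose in CCND2mut against Vec and 2 fell (median 0.49), and 25 rose and 1 fell against CCND2wt (median 0.70). Among all tested genes away from them, 23.4% were higher against Vec and 21.4% against CCND2wt. Of these 14201 genes, 3932 were lower against Vec and 3466 against CCND2wt. This split by chromosome was chosen after the data were seen. The members lie on 17 chromosomes, with at most 6 on any of them (chromosome 1).

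Some members also carry genes of small nucleolar RNAs within their bounds on the same strand. There were 8 such members of 40 (20%), with 23 snoRNA genes between them, beside 1.65% of all tested protein-coding genes and 2 of the 127 other ribosome biogenesis genes. They were Nop56, Nop58, Dkc1, Ncl, Wdr43, Gnl3, Ppan and Tsr1; Nop56 held 5 snoRNA genes, among them Snord57 and Snord110. Against Vec, 2 of these 8 rose in CCND2mut (Dkc1 and Ncl) and 1 fell (Ppan), with a median of 0.21. Over all tested protein-coding genes 28% rose and 28% fell, so that the share of the 8 that rose lay near the background. By comparison, 20 of the 31 tested members without a snoRNA gene rose and 1 fell, with a median of 0.59. Among 202 other protein-coding genes with a snoRNA gene, 70 rose and 39 fell, with a median of 0.16. In CCND2wt against Vec all 8 had fold changes under 0 (median -0.28), of which 2 passed, against a median of -0.07 for the other 31. Of all 12701 tested protein-coding genes, 6469 were under 0 in that comparison and 9.55% fell. This split was chosen after fold changes were known, and was not tested.

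Compared per deposited gene length (CPM per kilobase, that is RPKM), nucleophosmin and nucleolin RNA led in all groups. Npm1 had a mean of 295 RPKM in CCND2mut, 228 in CCND2wt and 204 in Vec, and Ncl had 121, 76.9 and 85.4. Nhp2 was at place 3 of 39 in CCND2mut (100.1 RPKM) and 8 in Vec (37.2), while Ppan was at place 21 in CCND2mut (21.8 RPKM) and 3 in Vec (65.1). Polr1a was at place 25 in CCND2mut (15.5 RPKM) and 37 in Vec (4.69). Wdr12 was the lowest in all 3 groups, with 4.45 RPKM in CCND2mut, 3.59 in CCND2wt and 3.68 in Vec. These places depend on the deposited lengths, which was 11955 bases for Wdr12. By CPM Wdr12 was not the lowest: its means were 53.2, 42.9 and 44.0, against 22.3, 41.4 and 30.35 for Polr1e. Within groups, the median coefficient of variation of the tested members was 11.7% in CCND2mut, 4.96% in CCND2wt and 16.1% in Vec. Within CCND2mut, library 3 held the highest value in 23 members and library 2 the lowest in 29.

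Markers of dividing cells and of cell types also differed between the groups. Among all tested genes, 24.9% rose and 26.9% fell in CCND2mut against Vec, and 23.2% and 23.8% against CCND2wt. In CCND2wt against Vec, 9.71% of all tested genes rose and 9.05% fell. Of 10 markers of dividing cells, 9 rose and 1 fell in CCND2mut against Vec, 6 rose in CCND2wt against Vec, and 1 rose in CCND2mut against CCND2wt. Their summed level was 2396 to 3371 CPM in CCND2mut, 2565 to 2699 in CCND2wt and 944 to 1708 in Vec, so that both cyclin D2 groups lay above Vec. The summed level of the 40 members was 5461 to 6029 CPM in CCND2mut, 3577 to 3734 in CCND2wt and 3588 to 4956 in Vec, so that CCND2mut alone lay above the range of Vec. Myc stood at 104, 50.4 and 66.2 CPM in CCND2mut 1, 2 and 3, against 37.04, 29.4 and 41.7 CPM in CCND2wt 2, 3 and 4 and 85.4, 80.4 and 66.6 CPM in Vec 1, 2 and 4. It fell in CCND2wt against Vec (-1.10, SE 0.26, edgeR adjusted p = 0.0219), its value in CCND2mut against Vec was -0.07 (SE 0.257, edgeR adjusted p = 0.827), and it was higher in CCND2mut than in CCND2wt (1.03, SE 0.26, edgeR adjusted p = 0.0112). Myc lies on chromosome 15, which was higher as a whole in CCND2mut. The median there over genes averaging 5 CPM or more was 0.70 against CCND2wt and 0.66 against Vec. Markers of cell types differed too: 4 of 4 promyelocyte markers rose in CCND2mut against Vec (summed level 4848 to 10120 CPM in CCND2mut, 2497 to 2681 in CCND2wt, 1355 to 1865 in Vec). Of 9 maturing neutrophil markers 2 rose in CCND2mut against Vec and 7 against CCND2wt (3412 to 18850, 138 to 245 and 557 to 14040 CPM), and of 7 monocyte and macrophage markers 2 and 3 rose (1064 to 4264, 31.5 to 35.9 and 35.7 to 305 CPM). Against Vec, the shares of both lists that rose lay near the 24.9% of all tested genes. Of 5 stem and progenitor markers 4 fell in CCND2mut in both comparisons (209 to 598, 1724 to 1800 and 1306 to 1757 CPM). Of 5 mast cell markers 2 rose in CCND2mut and 4 in CCND2wt against Vec, and 3 fell in CCND2mut against CCND2wt (1164 to 9551, 15840 to 16380 and 7045 to 9724 CPM). All 6 B cell markers fell in CCND2mut and 3 in CCND2wt against Vec (4.04 to 14.6, 21.1 to 23.6 and 45.6 to 281 CPM). Of 7 erythroid markers 5 fell in CCND2mut against Vec (34.3 to 262, 994 to 1157 and 131 to 14810 CPM), with Vec 1 the highest. T and NK cell markers summed to 35.2 to 55.0, 33.4 to 43.5 and 64.4 to 125.9 CPM, megakaryocyte markers to 29.2 to 70.9, 85.2 to 95.4 and 99.2 to 135.8 CPM, and endothelial and stromal markers to 432 to 602, 317 to 338 and 272 to 313 CPM. Pecam1 made up most of the last sums, with means of 499, 325 and 289.5 CPM in CCND2mut, CCND2wt and Vec. Nkg7 made up most of the T and NK sum in CCND2mut (mean 44.9 CPM, 28.3 in Vec). It rose in CCND2mut against Vec, while 3 of the 4 tested T and NK markers fell. Klrb1c was at 0 in CCND2mut and Gp1bb in all 3 groups. No other marker had 0 counts over a whole group, and the part of these markers in the results was not tested. Without Vec 1 and CCND2mut 1, the libraries with the most neutrophil RNA, 19 members rose against Vec and 29 against CCND2wt, with medians of 0.41 and 0.64, beside 26.7% and 24.7% of all genes in that fit.

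**Figure D5:**
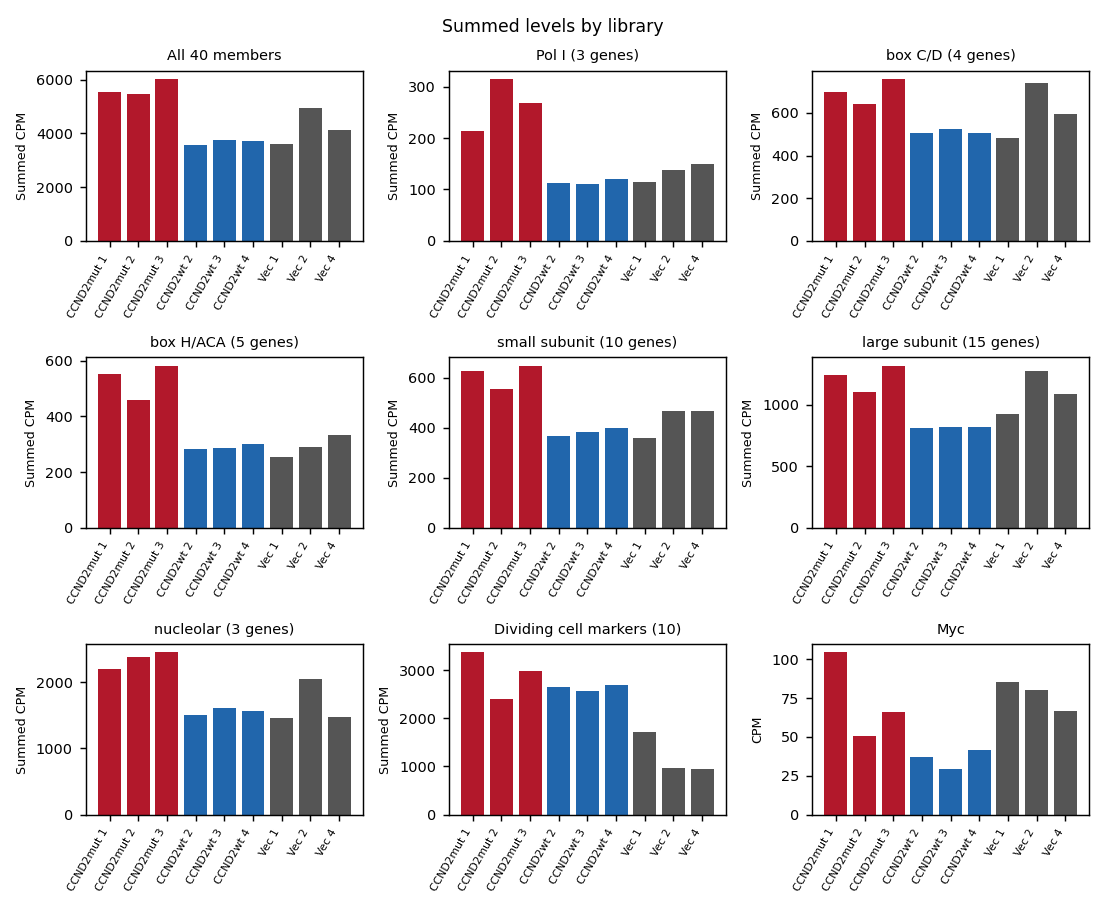
Summed CPM of all 40 members, of the members of each role, and of 10 markers of dividing cells, and the level of Myc, in each library (bars, red CCND2mut, blue CCND2wt, grey Vec, axes from 0). The members' sum is highest in the 3 CCND2mut libraries, while that of the dividing cell markers is higher in both cyclin D2 groups than in Vec.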

How the data were processed

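The members and lists were chosen with earlier results of these data known. The authors' deposited table holds raw read counts per gene; per the submitters' processing notes, the tools were CASAVA 1.8, fastp, the aligner HISAT2 2.0.5, the counter featureCounts 1.5.0-p3 and DESeq2 1.20.0, and the genome build was mm10. Per the labels' protocols, TRIzol was used for extraction and an NEBNext Ultra kit for library preparation. No source used here gives the annotation release or the strand setting. Samples were grouped by title, and 0 count columns were left without a sample. Of 54532 genes, 30980 had a read and 15660 passed filterByExpr. Gene lengths are the deposited values. All 9 libraries were fitted in 1 robust quasi-likelihood model (edgeR 4.0.16 under R 4.3.3) with TMM factors, which left 6 residual degrees of freedom and had a median biological coefficient of variation of 0.246. Fold changes are tested over compared group, with Benjamini-Hochberg adjustment of p-values across the whole table and a threshold of 0.05. Named were all members, Ccnd2, Myc, listed markers, and the 3 largest rises and falls that passed in the list of other ribosome biogenesis genes. Alternatives were RLE factors, DESeq2 1.42.0, limma-voom (limma 3.58.1), no filter, a stricter filter (mean of 1 CPM and 50 counts), only the groups compared, the replicate number as a block, a threshold of 1.5-fold, removal of mitochondrial, immunoglobulin and haemoglobin genes, left-out libraries and summed CCND2wt libraries. Chi-squares used genes with 20 or more counts in both libraries together.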

Additional observations from a re-analysis of the deposited data

How the results depend on the processing

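No call of a member changed direction under any alternative. The number of members higher in CCND2mut than in Vec was 18 to 25 in all fits (16 with a 1.5-fold threshold), beside 11.6% to 26.7% of all genes. The number higher than in CCND2wt was 23 to 31 in fits with more than 1 CCND2wt sample, beside 10.2% to 26.3% of all genes. The fit with the CCND2wt libraries summed, given above, called fewer, and its lone sample was assumed to vary like the other groups. The number lower in CCND2mut than in Vec was 1 instead of 2 with a 1.5-fold threshold, no filter, only the groups compared, the replicate block and the summed CCND2wt libraries, and 1 to 3 with a library left out. Of all genes, 22.7% to 25.8% were lower in CCND2mut than in Vec with a library left out. That share was 24.1% with the 1.5-fold threshold, 12.8% with no filter, 21.2% with only the groups compared and 22.3% with the replicate block. Between CCND2wt and Vec, DESeq2, limma-voom and the fit of only these groups called 1 member higher, and leaving out a library gave 0 to 1 higher and 1 to 7 lower. With a library left out, 3.75% to 12% of all genes were higher and 2.46% to 11.4% lower in CCND2wt than in Vec. The share lower was 3.33% with no filter, 4.36% with the replicate block and 12.9% without Vec 1 and CCND2mut 1. The number lower there was 1 with no filter or the replicate block, 0 with the CCND2wt libraries summed and 9 without Vec 1 and CCND2mut 1. The fold change of Nop10 in CCND2mut against Vec, which was not called, was -0.2876 to 0.0205 with a library left out, and above 0 without CCND2mut 2 (0.0205) or Vec 4 (0.0015). The cause was not tested. Same-numbered libraries did not deviate together throughout (correlation over genes -0.0727 to 0.187), so the numbers were not taken to pair samples; with the replicate block 19 members rose and 1 fell in CCND2mut against Vec, and 25 rose and 1 fell against CCND2wt (20.8% and 18.4% of all tested genes rose there). Of the calls in CCND2mut, 24 of 29 against CCND2wt and 19 of 24 against Vec were kept with each library left out in turn. Beside those given above, Npm1, Noc4l and Utp20 lost their call against CCND2wt in some of these fits. That of Npm1 was lost without any 1 library other than CCND2mut 1 or Vec 2 (0.3 to 0.41, edgeR adjusted p = 0.0528 to 0.161). That of Noc4l was lost without CCND2wt 2 or CCND2wt 3, and that of Utp20 without CCND2mut 3, CCND2wt 2 or CCND2wt 3. Over 19 alternatives, values of members that were not called changed sign 1, 7 and 30 times in CCND2mut against CCND2wt, CCND2mut against Vec and CCND2wt against Vec, and none of these was larger than 0.15 on the log2 scale. With 3 libraries a group and a median biological coefficient of variation of 0.246, small changes of single genes can be missed.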

Other observations

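Genes near Polr1a and Bop1 were examined as well. Within 500 kb of Polr1a on chromosome 6, 16 other genes had a mean of at least 5 CPM. Of these, 8 were higher and 1 was lower in CCND2mut against Vec (edgeR adjusted p under 0.05); the median log2 fold change was 0.60 and the highest 1.52, under the 1.73 of Polr1a. Within 500 kb of Bop1 on chromosome 15, 23 of 37 genes were higher and 1 lower, with a median of 0.60, over the 0.53 of Bop1. Near Nop2, also on chromosome 6, 15 of 29 genes were higher and 3 lower, with a median of 0.71. Near Nhp2 on chromosome 11, 3 of 12 genes were higher and 4 lower, with a median of -0.04. Rrs1 on chromosome 1 had 4 of 7 such neighbours higher and 1 lower, with a median of 0.78. A raised median of neighbours thus also occurred away from chromosomes 6 and 15. All 12 tested genes of the other ribosome biogenesis list on chromosomes 6 and 15 (6 on each) rose in CCND2mut against Vec, with medians of 0.92 and 1.15, where 36.4% of all tested genes on chromosome 6 and 44.7% on chromosome 15 rose. On other chromosomes, 48 of 114 of the list rose and 2 fell, with a median of 0.30. Of all 14201 tested genes there, 23.4% rose and 3932 fell. These genes were examined after the chromosome medians were known.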
